A study of Mus musculus with 3 samples.

Results

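Regulatory T cells are CD4 T cells that restrain other immune cells. The 9 genes described here are transcripts commonly used to recognise them: Foxp3, Il2ra, Ctla4, Izumo1r, Nrp1, Lrrc32, Gpr83, Capg and Itgae. They were taken by symbol from count tables of 50600 annotated genes, and all 9 were found. The tables came from total RNA-seq of mouse primary cells of strain C57BL/6NJ labelled T-helper 1, in 1 group of 3 libraries labelled biological replicates 1, 2 and 3. The libraries came from separate biosamples that share a donor identifier, the sex was not collected and the age is unknown. The header of each count table names a time of 0 hours, and no agent or genotype beyond the strain is given in the labels. The series is titled total RNA-seq, while its labels point to a protocol named for poly-A+ RNA. With 1 group there was no contrast between conditions, so levels were compared between genes within a library and between the 3 libraries. The p-values measure only the spread between these samples, which may be technical.

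FOXP3 is the transcription factor that defines regulatory T cells, and its loss causes fatal autoimmunity in mice. It acts together with partners such as Runx1 with Cbfb, lowers transcription of Il2 and raises that of Il2ra and Ctla4. The protein products of the other genes sit mostly at the cell surface. They capture interleukin 2 (Il2ra), compete with Cd28 for its ligands (Ctla4), present latent TGF-beta (Lrrc32) or bind E-cadherin (Itgae). Most are not exclusive to regulatory T cells. Il2ra and Ctla4 are induced in any activated T cell, Nrp1 is found on endothelium and dendritic cells, Lrrc32 on platelets, Capg in myeloid cells, and Itgae on tissue CD8 T cells and some dendritic cells.

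Depth was 3647366, 4305077 and 2510319 counts (replicates 1 to 3). Replicate 3 stood apart. In it, 76.5% of the counts fell on genes whose exons overlap an exon of the opposite strand, against 63.1% in replicate 1 and 53.8% in replicate 2. Genes that lie more than 5 kb from any gene of the other strand took 9.05% of its counts, against 15.4% and 19.9%. The fragments had been counted for a gene when the first read had the gene's strand, so the overlap class of each gene is given beside its values. The strand orientation of the library kit was not given in the sources used here, so the setting may be the reverse of the kit's. Counts of a gene would then hold fragments of its other strand, and every level below carries that limit. Which orientation applies was not tested. Of the cell identity genes, naive T cell genes were high, with 12 of 12 at 1 TPM (counts divided by exon length and scaled to the same sum in each library) or more in all 3 libraries. The Th1 regulator Tbx21 and the Th1 cytokine Ifng had 1, 3 and 0 counts each, so these 2 were at or near 0. Of the 12 Th1 genes listed, 4 reached 1 TPM in all 3 libraries. Among the 4 were Il18r1 (mean 28.4 TPM), Stat4 (14.8) and Il12rb2 (14.3, exon overlap). Over all protein-coding genes 41.6% reached 1 TPM in all 3 libraries.

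Foxp3 had by far the most counts of the 9 genes, and the other 8 ranged from well expressed to nearly absent. Foxp3 (ENSMUSG00000039521.12, chromosome X, 7579676 to 7595243, plus strand, mm10) had 1003, 935 and 1203 counts in replicates 1, 2 and 3. On the TPM scale its level was 134, 120 and 202, a mean of 152 ± 44.0 (SD, n = 3). Replicate 3 was the highest and replicate 2 the lowest, also when counts were scaled by library total alone (CPM: 275, 217 and 479). Foxp3 alone made up 72.6%, 64.5% and 83.9% of the counts of all 9 genes together. The summed counts of the other 8 were 379, 514 and 230. This share and the first rank of Foxp3 hold only if the strand setting fits the kit, since under the reverse setting fragments of Ccdc22 on the other strand would be counted for Foxp3. In bulk RNA fewer cells that express a gene cannot be told apart from less RNA of it per cell.

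**Figure D1:**
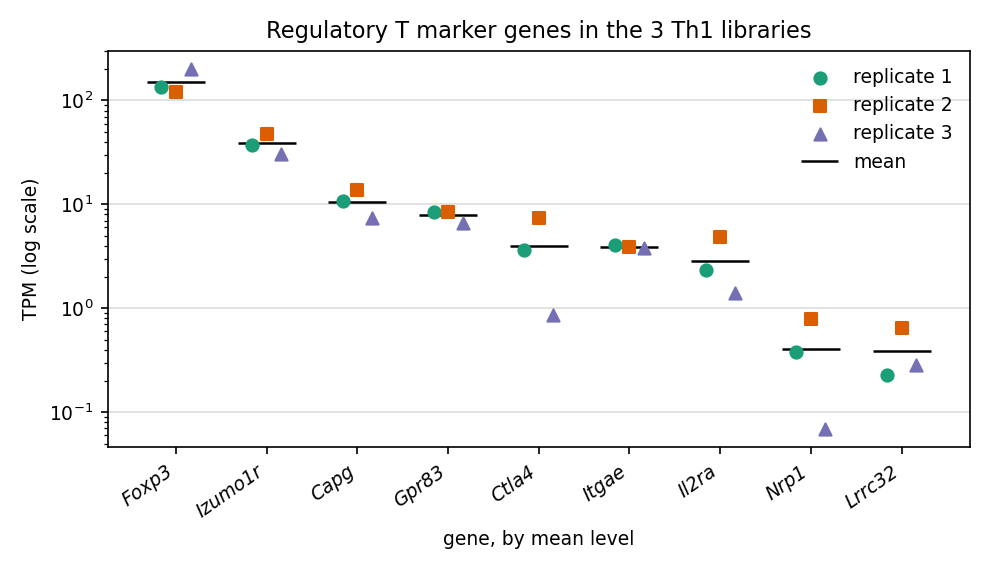
TPM on a log axis for the 9 genes in replicates 1, 2 and 3 (circles, squares, triangles), with a bar at the mean. Foxp3 lies above all others in each library and is highest in replicate 3. On this scale 7 of the 9 genes are lowest in replicate 3, Ctla4 and Nrp1 among them. Over all tested genes the median log2 difference of replicate 3 from 2 on TPM was −1.26.

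The Foxp3 locus is crowded, and its exons are shared with genes on both strands. On the minus strand Ccdc22, which encodes a subunit of an endosomal sorting complex found in most cells, runs toward Foxp3 and shares 590 exonic bases with it (7593809 to 7595055). These are 14.8% of the exonic bases of Foxp3 and 17.2% of those of Ccdc22. None of them lie in Foxp3 coding sequence, while 345 lie in Ccdc22 coding sequence and 245 in neither. The transcript Gm36995, also on the minus strand, shares 373 bases with Foxp3. On the plus strand Flicr, a long noncoding RNA known in mouse to dampen Foxp3 expression, shares 267 bases with the start of Foxp3 (7579676 to 7580578). A fragment that falls on both Foxp3 and Flicr was not counted for either under the default of the counting program.

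The start of Foxp3 is shown because these Flicr bases lie there. RefSeq gives 2 start sites for Foxp3, both on the plus strand, and the deposited exons of Foxp3 begin at the first. Each sequence runs 5′ to 3′ from 250 bases before a start to 50 bases after it, in the GRCm38.p6 build, which is mm10. Capitals mark the letters TATAAA (as in a TATA box) or TGTGGT (the core bound by Runx factors) on either strand.
Foxp3 first start, chrX:7579426-7579725: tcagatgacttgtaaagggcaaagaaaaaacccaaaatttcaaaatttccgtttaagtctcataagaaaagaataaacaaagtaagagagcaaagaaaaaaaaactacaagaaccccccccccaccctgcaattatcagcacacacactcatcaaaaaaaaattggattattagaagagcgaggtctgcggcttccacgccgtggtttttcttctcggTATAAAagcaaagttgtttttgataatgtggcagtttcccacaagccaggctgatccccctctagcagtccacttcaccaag
Foxp3 second start, chrX:7580233-7580532: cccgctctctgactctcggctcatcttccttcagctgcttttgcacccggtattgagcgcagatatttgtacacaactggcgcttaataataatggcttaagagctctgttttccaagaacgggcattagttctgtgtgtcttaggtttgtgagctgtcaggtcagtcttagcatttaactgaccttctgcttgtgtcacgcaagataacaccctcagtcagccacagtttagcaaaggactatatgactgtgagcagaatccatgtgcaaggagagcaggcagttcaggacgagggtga
The first holds TATAAA, beginning 32 bases before the start, and the second holds neither motif in this window. Of 32851 RefSeq mouse promoter windows of the same length, 13.6% hold TATAAA and 16.8% hold TGTGGT on either strand. RefSeq windows were found for 7 of the 9 genes.

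**Figure D2:**
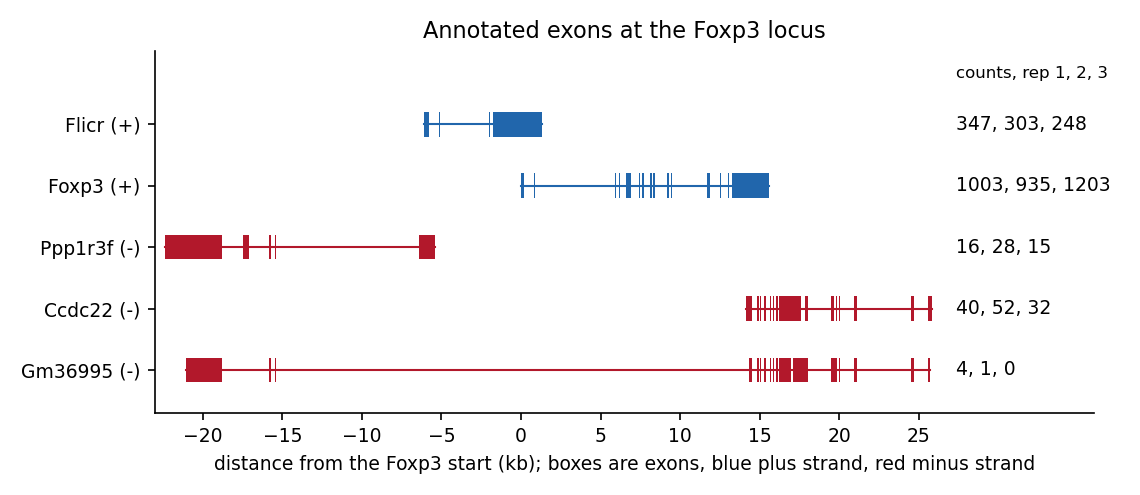
Exons (boxes) of genes around Foxp3 against distance from its start in kb, plus strand in blue and minus strand in red, with counts of each gene in replicates 1, 2 and 3 at the right. The last Foxp3 exon lies over the end of Ccdc22, and the last Flicr exon lies over the Foxp3 start.

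Foxp3 was then set against Ccdc22 on the other strand. Ccdc22 had 40, 52 and 32 counts, so Foxp3 had more counts in each library, by 21.5 times per exonic base in replicate 1 (95% exact Clopper-Pearson interval 15.7 to 30.3), 15.4 times in replicate 2 (11.7 to 20.8) and 32.3 times in replicate 3 (22.8 to 47.4). Over the 3 libraries the ratio was 21.8 (18.2 to 26.3). The intervals cover counting error only. With the reverse orientation the direction of this ratio could turn over. The ratio was not the same in the 3 libraries (Fisher's exact test of the counts, two-sided, p = 0.00459), but the test missed the threshold without replicate 2 (p = 0.0938) or without replicate 3 (p = 0.135). The ratio was then set beside those of other such loci. Of 227 pairs of protein-coding genes that run toward each other, share 300 to 1000 exonic bases and have at least 60 counts between them, 35 (15.4%) differed by 10 times or more per base in either direction. In 10 of them the ratio was larger than that of Foxp3 and Ccdc22, and the median was 4.04.

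Flicr, which lies on the Foxp3 strand, had 347, 303 and 248 counts. Per exonic base Foxp3 exceeded it by 2.59 times in replicate 1 (2.29 to 2.93), 2.76 in replicate 2 (2.42 to 3.16) and 4.34 in replicate 3 (3.78 to 4.999), so replicate 3 stands above the other libraries beyond counting error. Flicr in turn overlaps Ppp1r3f on the minus strand over 310 exonic bases, and it had more counts per base than Ppp1r3f in each library, by 21.96 times over all 3 (16.9 to 29.1), a direction that rests on the strand setting in the same way. Gm36995 had 4, 1 and 0 counts. Flicr and Ppp1r3f were chosen for mention with their values known.

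The difference of Foxp3 between libraries is set here beside that of other genes with opposite-strand exon overlap. Relative to replicate 2 its CPM was higher in replicate 3 by 1.14 on the log2 scale and in replicate 1 by 0.34. Over 4418 tested genes with exon overlap the median difference of replicate 3 from 2 was 0.25 (quartiles −0.96 and 0.90), and Foxp3 lay above 89.2% of them. Over 2600 tested genes more than 5 kb from any gene of the other strand the median was −1.22 (quartiles −1.61 and −0.85). Replicate 3 had the highest CPM in 51.0% of the genes with exon overlap and in 5.54% of the genes with no opposite-strand gene nearby. The part of opposite-strand fragments in the Foxp3 counts was not tested, since the tables give 1 count per gene and not the position of fragments within it. The Foxp3 level is thus the level of fragments assigned to it.

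The genes nearest to Foxp3 in level and pattern all had such overlap. The distance was taken over log2(CPM + 0.5) in the 3 libraries, among 21763 protein-coding genes. Nearest was Prg4 (distance 0.0587; 1012, 917 and 1162 counts), which shares 204 exonic bases with Tpr on the other strand. Next were 6430550D23Rik (0.104), which shares 1149 with Cep250, and Pkd1l3 (0.112), which shares 190 with Ist1. In all 11 genes lay within 0.25 of Foxp3, and 11 of these 11 had exon overlap with the other strand, against 34.96% of tested protein-coding genes. Nearness to Foxp3 picks genes that are highest in replicate 3. That held for 51.0% of tested genes with exon overlap and 5.54% of those with no opposite-strand gene nearby. The overlap of the 11 is thus partly set by how they were picked, while the 34.96% covers genes of any level and pattern. These 3 libraries are few points, and nearness in them is a description.

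**Figure D3:**
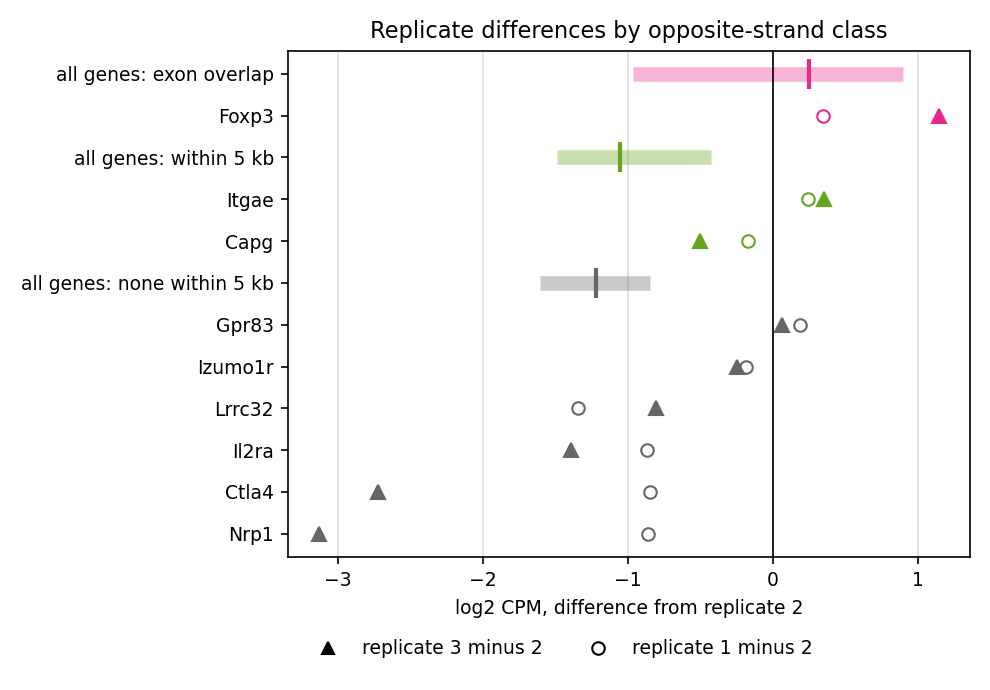
Difference in log2 CPM from replicate 2 for each gene, replicate 3 as triangles and replicate 1 as open circles, grouped by opposite-strand class. Bars give the quartiles and ticks the median of replicate 3 minus 2 over all tested genes of the class. Foxp3 lies at 1.14, beyond the upper quartile of its class, and Ctla4 and Nrp1 lie far below the lower quartile of theirs. Ctla4, Nrp1 and Lrrc32 did not pass the filter on low counts and are not among the tested genes. Nrp1 had 1 count in replicate 3.

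Among the surface proteins, Izumo1r was the highest and Gpr83 its chromosomal neighbour. Izumo1r encodes folate receptor 4, a surface protein of regulatory and anergic T cells in mouse, and is also known as the egg receptor for sperm. It lies on chromosome 9 (14885814 to 14903949, minus strand) more than 5 kb from any gene of the other strand, and had 162, 218 and 107 counts. Its TPM level was 37.1, 48.0 and 30.9, a mean of 38.6 ± 8.65 (SD, n = 3), and replicate 2 was the highest. Its relatives of the folate receptor family were low, with 2, 5 and 3 counts of Folr2 and 0 counts of Folr1. Gpr83, a G protein-coupled receptor enriched in regulatory T cells, lies 15025 bases away on the plus strand (14860210 to 14870789). It had 81, 84 and 51 counts, and its TPM level of 8.45, 8.41 and 6.70 had a mean of 7.85 ± 1.00 (SD, n = 3), while on CPM with effective library sizes (trimmed mean of M-values, TMM) it ran 20.98, 15.4 and 27.28.

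The ratio of Izumo1r to Gpr83 per base held steady within counting error. It was 4.39 in replicate 1 (95% Clopper-Pearson interval 3.34 to 5.81), 5.70 in replicate 2 (4.41 to 7.42) and 4.61 in replicate 3 (3.27 to 6.56), and the 3 intervals overlap. A steady ratio was not particular to these neighbours. The log2 TPM ratios of Izumo1r to Capg and of Gpr83 to Itgae, on different chromosomes, each had an SD of 0.15 over the libraries. The starts of Izumo1r and Gpr83 are shown because the 2 genes are neighbours, with the same marks in capitals.
Izumo1r, chr9:14903718-14904017, minus strand: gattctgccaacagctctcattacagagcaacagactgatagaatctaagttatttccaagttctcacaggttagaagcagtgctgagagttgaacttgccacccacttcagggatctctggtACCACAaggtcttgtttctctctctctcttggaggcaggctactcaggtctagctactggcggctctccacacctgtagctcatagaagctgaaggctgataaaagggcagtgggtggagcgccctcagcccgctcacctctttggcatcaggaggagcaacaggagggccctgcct
Gpr83, chr9:14859960-14860259, plus strand: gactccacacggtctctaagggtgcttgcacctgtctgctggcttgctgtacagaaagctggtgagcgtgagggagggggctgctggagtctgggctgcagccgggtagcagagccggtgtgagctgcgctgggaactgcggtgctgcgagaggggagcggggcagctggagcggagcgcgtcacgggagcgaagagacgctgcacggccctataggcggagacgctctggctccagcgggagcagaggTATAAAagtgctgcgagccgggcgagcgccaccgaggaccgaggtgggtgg
The Izumo1r window holds ACCACA, the reverse of TGTGGT, beginning 127 bases before the start. The Gpr83 window holds TATAAA beginning 1 base before the annotated start. Of the 8 windows of these genes, 3 held TATAAA (Foxp3, Gpr83 and Ctla4, the last after its start, at −40 when bases before the start are counted) and 1 held TGTGGT.

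Capg and Itgae had neighbours on the other strand within 5 kb. Capg, an actin filament capping protein (chromosome 6, 72544391 to 72562983, plus strand), was counted 51, 68 and 28 times, with a TPM level of 10.7, 13.7 and 7.41 (mean 10.6 ± 3.16, n = 3). Elmod3 on the other strand, 2939 bases away, had 28, 36 and 8 counts. Capzb, a subunit gene of the heterodimeric capping protein, was higher at 80.7 ± 41.3 TPM.

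Itgae, which encodes the alpha chain CD103 of the E-cadherin receptor (chromosome 11, 73090583 to 73147446, plus strand), had 35, 35 and 26 counts. Its TPM level of 4.06, 3.90 and 3.798 had a mean of 3.92 ± 0.131 (SD, n = 3), and on TMM-scaled CPM it ran 9.06, 6.41 and 13.9, a wider spread. Its partner chain Itgb7 was far higher at 200 ± 95.4 TPM, by 52.9 times per base over the 3 libraries (43.2 to 65.5). Itgb7 also pairs with the integrin alpha 4 chain in T cells. Cdh1, the E-cadherin gene, had 2, 3 and 0 counts. Haspin, a kinase gene inside an Itgae intron on the other strand, had 17, 30 and 8 counts and shares no exonic base with Itgae.

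Ctla4 and Il2ra, genes of activated and regulatory T cells, were low. Ctla4 (chromosome 1, 60887000 to 60915832, plus strand) was counted 16, 34 and 3 times, and its TPM level was 3.65, 7.45 and 0.862 (mean 3.99 ± 3.31, n = 3). Replicate 3 was lowest on each scale used, TPM, CPM and TMM-scaled CPM. The activating receptor Cd28, which binds the same ligands, stood at 44.8 ± 27.4 TPM, above Ctla4 by 11.1 times per base over the 3 libraries (8.42 to 14.9). The ligand genes Cd80 and Cd86, of antigen-presenting cells, had 0, 2 and 6 and 7, 12 and 5 counts. Ctla4 also lies more than 5 kb from the other strand's genes. Its difference of replicate 3 from 2 (−2.72 on log2 CPM) lay above that of 1.04% of the 2600 tested genes of this class. Ctla4 itself did not pass the filter on low counts. That filter takes out genes that are low in any 1 library, so the rank is partly set by it. With 3 counts in replicate 3, the exact Poisson interval of the count reaches from 0.619 to 8.77.

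Il2ra, the alpha chain CD25 of the high-affinity interleukin 2 receptor (chromosome 2, 11642807 to 11693193, plus strand), had 25, 54 and 12 counts. Its TPM level was 2.33, 4.83 and 1.41 (mean 2.85 ± 1.77, n = 3), with replicate 2 highest. The other chains of the receptor were higher, Il2rg at 72.3 ± 39.8 TPM and Il2rb at 5.81 ± 4.83 TPM. Il2rb had 44, 48 and 1 counts, so its level in replicate 3 was 0.240 TPM. Il2rg exceeded Il2ra by 25.4 times per base over the 3 libraries (20.4 to 31.8). Il2 itself had 1 count in each library.

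Nrp1 and Lrrc32 were nearly absent. Nrp1, a semaphorin and VEGF co-receptor that marks thymus-derived regulatory T cells in mouse (chromosome 8, 128358604 to 128503363, plus strand), had 7, 15 and 1 counts, or 0.380, 0.782 and 0.0684 TPM. Lrrc32, which encodes the latent TGF-beta docking protein GARP of activated regulatory T cells and platelets (chromosome 7, 98489283 to 98502181, plus strand), had 2, 6 and 2 counts, or 0.227, 0.653 and 0.286 TPM. With so few counts no difference between libraries was read for either gene. Tgfb1, whose latent product Lrrc32 docks, stood at 18.5 ± 6.67 TPM, and Itgb8, a chain of an integrin that activates it, had 1, 0 and 0 counts.

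The order of the 9 levels was tested as log2 ratios of TPM + 0.1 between neighbours within each library. In order of the mean log2 level the genes were Foxp3, Izumo1r, Capg, Gpr83, Itgae, Ctla4, Il2ra, Lrrc32 and Nrp1. In 5 of 8 neighbouring pairs the ratio had the same sign in all 3 libraries and a mean above its SD. The first 4 steps were among these, with Foxp3 above Izumo1r by 1.96 ± 0.70, Izumo1r above Capg by 1.87 ± 0.15, Capg above Gpr83 by 0.39 ± 0.28 and Gpr83 above Itgae by 0.98 ± 0.15 (log2, n = 3). Il2ra stood above Lrrc32 by 2.52 ± 0.49. The differences Itgae minus Ctla4 (0.42 ± 1.49), Ctla4 minus Il2ra (0.20 ± 0.73) and Lrrc32 minus Nrp1 (0.14 ± 0.93) did not exceed their spread, and each changed sign between libraries. An exact sign-flip permutation test over 3 libraries cannot go below p = 0.25, which the 5 steps reached. Without length scaling, on TMM-scaled CPM, Gpr83 stood above Capg, and Il2ra stood above Ctla4.

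Whether a gene varied between the libraries more than counting allows was asked with a Poisson chi-square over 10662 genes, with Benjamini-Hochberg adjustment. Of the 9 genes, 6 passed the filter on low counts and 4 of these were called: Foxp3 (adjusted p = 2.13e-241, Poisson chi-square), Gpr83 (0.00781), Izumo1r (0.0132) and Itgae (0.0176). Il2ra (0.177) and Capg (0.751) were not called, and Ctla4, Nrp1 and Lrrc32 were not tested under this filter. The background was 62.4% of all tested genes, with 74.7% of those with exon overlap, 54.3% of those with an opposite-strand gene within 5 kb and 52.7% of the rest. The share of the 6 tested genes called is near it. Without replicate 3, where the background was 28.1%, Foxp3 was still called, while Gpr83, Izumo1r and Itgae were not (adjusted p = 0.120, 0.756 and 0.287, Poisson chi-square). Without replicate 2, where 49.7% of all tested genes were called, Gpr83 (0.259) and Itgae (0.182) were not. With raw library totals, where 82.5% of all tested genes were called, Gpr83 (0.719), Izumo1r (0.279) and Itgae (0.639) were not while Il2ra was (0.00199). With the common dispersion of these libraries (0.141) added to the counting error, 3.79% of genes were called and Foxp3 was the single one of the 6 (adjusted p = 0.0469, negative binomial chi-square).

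The direction of these differences depended on the scaling, except for Foxp3, Il2ra, Ctla4, Nrp1 and Lrrc32, the last of which was highest in replicate 2 on all 3 scales. The median log2 difference of replicate 3 from replicate 2 over tested genes was −0.88 on CPM, −1.26 on TPM and −0.11 on TMM-scaled CPM. Foxp3 was highest in replicate 3 on all 3 scales, and Il2ra, Ctla4 and Nrp1 were lowest in it on all 3, Il2ra narrowly on TMM-scaled CPM (6.47, 9.89 and 6.42). Izumo1r, Gpr83 and Capg were highest in replicate 3 on TMM-scaled CPM but not on TPM or CPM, and Itgae on TMM-scaled CPM and CPM but not on TPM. Relative to the median of tested genes, which removes the scaling, replicate 3 exceeded replicate 2 by 2.02 for Foxp3, 1.23 for Itgae, 0.93 for Gpr83, 0.63 for Izumo1r, 0.37 for Capg and 0.07 for Lrrc32 (log2). It was lower by −0.52 for Il2ra, −1.85 for Ctla4 and −2.25 for Nrp1. The values of Nrp1 (7, 15 and 1 counts) and Lrrc32 (2, 6 and 2 counts) rest on few counts. Neither gene passed the filter on low counts. The directions given for them are descriptions only, and no difference between libraries is read from them.

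The other genes tied to regulatory T cells were mostly low, as were most protein-coding genes. Of 30 further genes of this kind, 10 reached 1 TPM in all 3 libraries (11 without replicate 3) and 8 had 0 counts throughout, while 41.6% of all protein-coding genes reached 1 TPM. The median of their mean log2(TPM + 0.1) was −1.39, against −0.97 over all protein-coding genes and 2.01 over the 9 genes. The highest were Tgfb1, Tnfrsf18 (18.3 ± 9.77 TPM, exon overlap), which encodes the receptor GITR, and Gata3 (15.1 ± 6.00 TPM, exon overlap). Ikzf4 and Ikzf2, partners of FOXP3 from the Ikaros family, were low, with Ikzf4 at 2.16 ± 1.59 TPM and Ikzf2, which encodes Helios, at 0.567 ± 0.347 TPM, both with exon overlap. Among the 8 genes at 0 were Il10, Ebi3, Areg and Fgl2, which encode secreted products and were named after their values were seen, while Tgfb1, also secreted, led the list. For Il10 the 3 counts that a count of 0 allows would be 1.22, 1.17 and 1.53 TPM in replicates 1, 2 and 3. Of the 8 tested genes of this list, 3 were called as varying between libraries, against 62.4% of all tested genes.

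Genes that act on the Foxp3 gene or with its protein were all present. Of 22, 22 reached 1 TPM in all 3 libraries, against 41.6% of all protein-coding genes. The median mean log2(TPM + 0.1) of the 22 was 4.61. Ikzf1 was the highest at 164 ± 85.7 TPM, followed by the acetyltransferase gene Kat5 (106 ± 18.7 TPM, exon overlap) and Mbd2 (68.8 ± 28.7 TPM). Cbfb stood at 39.0 ± 19.9 and its partner Runx1 (exon overlap) at 7.21 ± 4.68 TPM. By TPM, 21 of the 22 were lowest in replicate 3. The exception was Kat5, with 351, 384 and 382 counts. Of all 21764 protein-coding genes 9439 were lowest in replicate 3, and 8529 with 0 counts in all 3 libraries could not be. Of the 22 tested genes 15 were called as varying, against 62.4% of all tested genes, and 5 without replicate 3, against 28.1%. The paralogs Foxp1 and Foxp4 stood at 22.3 ± 12.4 and 18.3 ± 5.25 TPM.

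Genes that FOXP3 lowers, or that mark naive and activated T cells, were described beside these. Over all protein-coding genes 41.6% reached 1 TPM in all 3 libraries. Of 8 genes known to be repressed by FOXP3, 6 did, led by Tcf7 at 619 ± 331 and Il7r at 205 ± 107 TPM. Tcf7 and Il7r are also naive T cell genes. The cytokine genes Il2 (1, 1 and 1 counts) and Ifng (1, 3 and 0 counts) did not. Of 16 activation genes 11 reached 1 TPM, with Myc at 27.8 ± 11.8, Hif1a (exon overlap) at 17.95 ± 10.6 and Cd69 at 12.2 ± 6.998 TPM. Of 12 Th1 genes 4 did, led by Il18r1 at 28.4 ± 18.7 TPM.

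**Figure D4:**
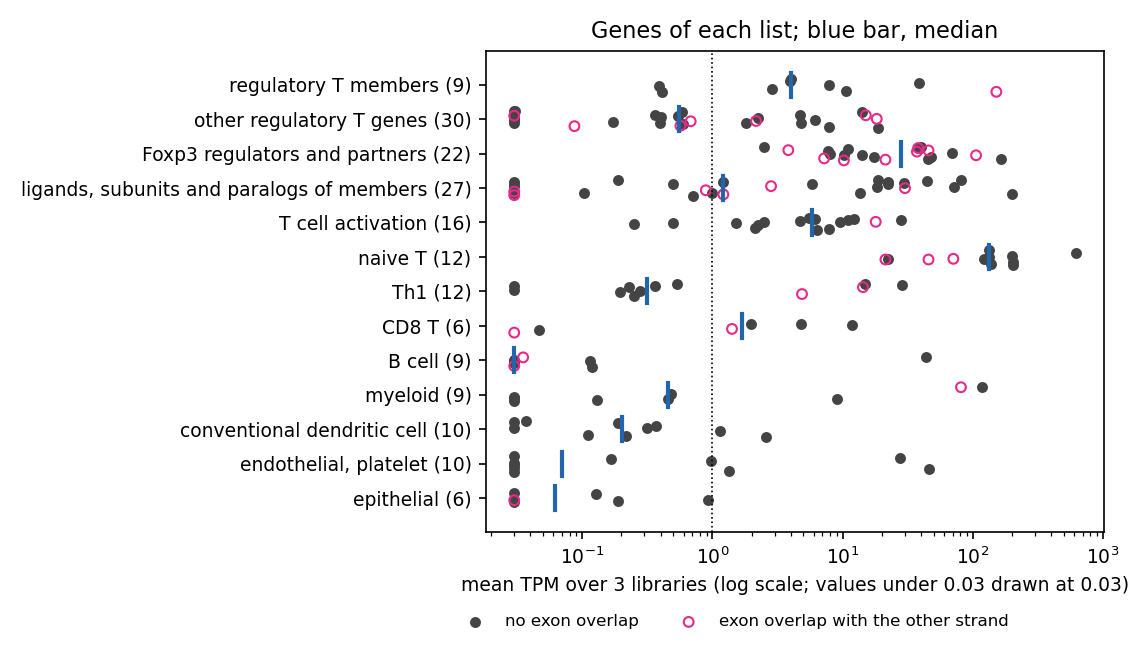
Mean TPM over the 3 libraries on a log axis for each gene of each list (number of genes in brackets), with the median as a blue bar, 1 TPM as a dotted line, and genes with opposite-strand exon overlap as open pink circles. The genes that act on or with Foxp3 all lie above 1 TPM, while most of the other regulatory T genes lie below it.

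Markers of other cell types that express some of the 9 genes were also counted, and some reached well above 1 TPM. Over all protein-coding genes 41.6% reached 1 TPM in all 3 libraries. Of dendritic cell genes 1 of 10 reached 1 TPM in all libraries (Cd74, 2.58 ± 1.17 TPM), the summed level was 6.97, 4.10 and 3.81 TPM in replicates 1, 2 and 3, and Xcr1 had 0, 3 and 5 counts. Of endothelial and platelet genes 2 of 10 did, Pecam1 (46.4 ± 24.4 TPM), which T cells also express, and Gp1ba (27.7 ± 3.84 TPM), their sum was 72.3, 101.7 and 55.7 TPM, and Vwf, Kdr, Tie1, Pf4 and Ppbp were at 0. Of myeloid genes 3 of 9 did, Ctss (117 ± 67.5 TPM), Csf1r (81.1 ± 14.5 TPM, exon overlap) and Cd68 (9.08 ± 4.64 TPM), their sum was 196, 263 and 167 TPM, and Lyz2 had 0, 1 and 0 counts. Of CD8 T cell genes 3 of 6 did, led by Cd8b1 at 11.9 ± 5.61 TPM, their sum was 18.6, 29.2 and 12.6 TPM, and Cd8a had 0, 1 and 0 counts. Of B cell genes 1 of 9 did, Cd79a, their sum was 33.6, 48.7 and 49.6 TPM, and 5 of the 9, Pax5 and Ebf1 among them, were at 0. No epithelial gene of 6 did, with Epcam at 4, 7 and 0 counts and a sum of 1.65, 2.09 and 0 TPM. The part of such cells in the levels of the 9 genes was not tested.

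The genes closest in level and pattern to the other members were also listed by the distance on log2(CPM + 0.5) over the 3 libraries. For Il2ra these were Mrpl11 (0.0751), Hps4 (0.0963) and Nkrf (0.124), and for Ctla4 they were Ntmt1 (0, with the same counts in each library), 1700066M21Rik (0.115) and Cnnm4 (0.125). For Izumo1r they were Nsrp1 (0.0619), Ppat (0.0805) and Thumpd3 (0.106), and for Gpr83 they were Traf3ip1 (0.0886), Tmem33 (0.102) and Dglucy (0.117). For Capg they were Dph7 (0.0490), Orc5 (0.0942) and Slc26a11 (0.110), and for Itgae they were Tymp (0.130), Cntnap1 (0.156) and Slc15a2 (0.175). Between 11 and 36 protein-coding genes lay within 0.25 of each of these genes, so the 3 named are a few among many with like counts.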

How the data were processed

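The authors deposited raw fragment counts, 1 table a library. Per the file headers they came from featureCounts 1.4.6-p4 over exons of GENCODE M13 genes, with both ends required to map, strand setting 1 and no multi-mapping option. Per the labels the build is mm10. Trimming, the aligner's version and the kit are not given in the sources used here. GENCODE M21 gave symbols for 50376 of the 50600 identifiers, and RefSeq (GRCm38.p6) the promoter windows.

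TPM and CPM were computed here, TPM from counts and summed exon length. TMM sizes came from edgeR 4.0.16 (DESeq2 1.42.0 as an alternative) and opposite-strand classes from bedtools 2.31.1. The chi-square test (Poisson, 2 degrees of freedom) ran over genes kept by filterByExpr, with adjusted p under 0.05 as the call. It compares libraries, not conditions, and with 1 group no edgeR contrast exists. It was tested on simulated Poisson counts. These lack the dispersion of the libraries (0.141), so that check does not cover variation beyond counting error.

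Depth was 2510319 to 4305077 counts. Since duplicates cannot be seen in the tables, intervals (95%) and floors (3 counts) cover counting error only. The 9 genes and all lists were chosen with earlier results of these data known. Genes named are the 9, their opposite-strand overlaps or neighbours within 5 kb, the top 3 and defining genes of lists, genes whose role ties them to one of the 9, and for each of the 9 with at least 30 counts the 3 nearest protein-coding genes. The text says where a gene was named after its values were seen.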

Additional observations from a re-analysis of the deposited data

How the results depend on the processing

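No paired analysis was possible because the series holds 1 group. The number of neighbouring pairs of levels that differed beyond their spread was 5 of 8, and between 5 and 6 with a pseudocount of 1 TPM, on TMM-scaled CPM or with any 1 replicate left out. Of the 9 genes 6 were tested, and 4 of these varied beyond counting error, where 62.4% of all tested genes were called. With raw library totals 2 were called (Foxp3, and Il2ra with adjusted p = 0.00199 by the Poisson chi-square test), against 82.5% of all tested genes. The number was 1 with the common dispersion added, and between 1 and 4 without a replicate. Leaving out replicate 2 gave 2 of 6 tested and replicate 3 gave 1 of 7. Without the filter on low counts 3 of 9 were called, and 8500 of 19958 genes in all. Foxp3 and Gpr83 (adjusted p = 0.0370, Poisson chi-square) were among them, and the remaining call fell on Ctla4, Nrp1 or Lrrc32. Izumo1r (0.0655) and Itgae (0.0515) were then not called, so their calls depended on the filter. Over all tested genes the count was 6649, against 404 with the dispersion added and between 3303 and 6377 without a replicate. The Foxp3 to Ccdc22 ratio ranged from 18.1 (without replicate 3) to 26.3 (without replicate 2), and Fisher's exact p for its split over libraries from 0.00112 to 0.135. At a threshold of 5 TPM 4 of the 30 further regulatory T genes passed in all libraries. Of 36 alternative levels of single genes 27 stayed within 1 SD, and 9 moved, all with a TPM denominator restricted to genes without exon overlap (Foxp3 at 660 TPM). The 27 each left out 1 replicate. With 3 libraries such a mean cannot move by 1 SD, so these 27 could not have moved and say nothing about stability. The depth limits Ctla4, Nrp1 and Lrrc32, which had under 60 counts in all.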
